A study of Mus musculus with 15 samples.

Results

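The S6 kinase and RSK kinase family comprised 10 genes, chosen by name from the 37991 gene identifiers of a liver RNA sequencing table. They were the S6 kinases Rps6kb1 (S6K1) and Rps6kb2 (S6K2), the p90 ribosomal S6 kinases Rps6ka1 (RSK1), Rps6ka3 (RSK2), Rps6ka2 (RSK3) and Rps6ka6 (RSK4), the mitogen- and stress-activated kinases Rps6ka5 (MSK1) and Rps6ka4 (MSK2), and the RSK-like genes Rps6kc1 and Rps6kl1. Whole livers came from 3 groups of 5 female mice on a C57BL/6 background: young WT mice of 90 days, old WT mice of 600 days and old S6K1 KO mice of 600 days, here called old KO. The knockout was in every tissue rather than in hepatocytes alone, WT and KO mice were bred from heterozygous parents, and a young KO group was not analysed here, so genotype was compared at 600 days alone. The question put to the family was whether the transcripts of its other members rose where S6K1 was targeted.

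S6K1 and S6K2 are kinases of the AGC family that act below the nutrient-sensing complex mTORC1, which phosphorylates a threonine in their hydrophobic motif, after which PDK1 phosphorylates the activation loop. They phosphorylate ribosomal protein S6 and factors of translation initiation. RSKs and MSKs each carry a pair of kinase domains and are switched on by kinases of the ERK class, and MSKs also by p38, with substrates that include S6 for RSKs and the transcription factor CREB for MSKs. Most control of these enzymes is by phosphorylation, which RNA sequencing does not measure.

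Each gene was measured as the number of 50-base reads assigned to it, out of 21801754 to 38065359 reads per liver, and is given as CPM, its reads scaled to a common library size, with the scaling of edgeR. Between 9 and 1448 reads per liver stood behind each member other than Rps6ka6. Differences were tested with edgeR's quasi-likelihood test over 14258 genes with enough reads, a gene was called at a Benjamini-Hochberg adjusted p below 0.05, and 95% intervals are those of the fitted log2 fold change. Of the 10 members, 9 had enough reads to be tested, all but Rps6ka6. Hepatocyte markers such as albumin summed to between 98049 and 162384 CPM in the 15 livers as a check of the tissue label.

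Because paralogs can share reads, the most alike stretches of 3 pairs are shown, 1 pair for each of the S6 kinases, RSKs and MSKs, at the length of 1 read, from the coding sequence of the NCBIM37 (mm9) mouse genome, 5′ to 3′, with the bases that differ in capitals. The S6 kinase window encodes the hydrophobic motif, and lies across exons 13 and 14 of 15 in both genes, at chr11:86317861-86320322 (minus strand) for Rps6kb1 and chr19:4157575-4157711 (minus strand) for Rps6kb2, intron included.
Rps6kb1: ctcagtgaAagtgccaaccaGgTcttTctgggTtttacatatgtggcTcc
Rps6kb2: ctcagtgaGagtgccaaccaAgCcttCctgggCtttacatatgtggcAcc
The RSK1 and RSK2 window encodes part of the N-terminal kinase domain, in exons 3 and 4 of 21 of Rps6ka1 (chr4:133425482-133427501, minus strand) and exons 4 and 5 of 22 of Rps6ka3 (chrX:155755898-155764785, plus strand).
Rps6ka1: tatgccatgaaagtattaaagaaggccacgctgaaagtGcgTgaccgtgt
Rps6ka3: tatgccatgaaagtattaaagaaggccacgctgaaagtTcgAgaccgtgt
The MSK window also encodes part of the N-terminal kinase domain, in exons 4 and 5 of 18 of both Rps6ka4 (chr19:6912636-6913774, minus strand) and Rps6ka5 (chr12:101854298-101857768, minus strand).
Rps6ka4: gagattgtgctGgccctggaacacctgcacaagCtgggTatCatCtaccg
Rps6ka5: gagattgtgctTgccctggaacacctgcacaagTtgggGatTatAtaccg

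These windows differed at 6 bases for the S6 kinases, 2 for RSK1 and RSK2 and 5 for the MSKs, and the closest windows of Rps6ka2 differed at 3 bases from Rps6ka1 and 4 from Rps6ka3. No 50-base window in the protein-coding transcripts of a member occurred exactly, read in the same direction, in those of another member. Other transcripts and pseudogenes were not searched. Windows within 2 mismatches of another member were found in Rps6ka1 and Rps6ka3 alone, 7 in each, out of 3913 and 8089. A read from a protein-coding transcript of Rps6kb1 therefore had no matching place in those of Rps6kb2. Among protein-coding transcripts outside the family the exception was Rnft1. It overlaps 155 bases of Rps6kb1 exon on the opposite strand and holds 106 of the 8183 windows of Rps6kb1 (1.3%). Rps6kb2 overlaps 46 bases of Ptprcap, and Rps6ka1 20 bases of Gm17623 and 247 of Gm12977, also on the opposite strand, and since the strand setting of the counting was not given in the sources used here, reads there cannot be assigned with certainty.

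S6K1, the targeted kinase, was examined first, since it checks the labels. Rps6kb1 (ENSMUSG00000020516, chr11:86312373-86358307) had 38.1, 33.3, 41.4, 38.1 and 40.6 CPM in young WT livers 1, 2, 3, 4 and 6. It had 35.8, 34.6, 37.3, 38.8 and 45.4 CPM in old WT livers 1, 4, 5, 7 and 10, and 16.3, 15.8, 16.9, 15.2 and 20.8 CPM in old KO livers 1, 2, 4, 5 and 6. Every old KO liver lay below every WT liver, and the ranges of young and old WT livers overlapped, with young WT 2 the lowest of the 10 WT livers and old WT 10 the highest. The group means were 38.3 ± 3.14 CPM in young WT, 38.4 ± 4.21 in old WT and 17.0 ± 2.23 in old KO (SD, n = 5). Rps6kb1 fell by 1.17 on the log2 scale in old KO against old WT (SE 0.0979, edgeR adjusted p = 8.54e-06), a change of -55.7% with a 95% interval of -61.6% to -48.8%. It was called in each fit that left out 1 liver. The deposited table gives 1 count for the whole gene, so which exons the remaining reads came from was not analysed here. With age, Rps6kb1 differed by 0.0025 on the log2 scale (SE 0.0954, adjusted p = 0.990), with an interval of -0.20 to 0.20.

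S6K2, the closest paralog and the other kinase of the mTORC1 branch, was not called in either comparison. Rps6kb2 (ENSMUSG00000024830, chr19:4156706-4163354) had 20.7, 18.6, 17.6, 20.2 and 15.5 CPM in the young WT livers, in the same order as above. It had 18.9, 15.04, 18.4, 16.2 and 17.0 CPM in the old WT livers and 16.3, 17.7, 15.7, 16.5 and 17.6 CPM in the old KO livers. All old KO values lay inside the old WT range, and young WT held both the highest liver and one near the bottom. Old KO differed from old WT by -0.03 on the log2 scale (SE 0.0885, adjusted p = 0.942), a change of -2.11% with a 95% interval of -14.0% to 11.5%. Old WT differed from young WT by -0.12 (SE 0.0880, adjusted p = 0.382). A rise of Rps6kb2 in old KO above 11.5% was thus outside the interval, and a smaller one was inside it and not excluded. The smallest rise that would have been called with these livers was not tested.

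**Figure D1:**
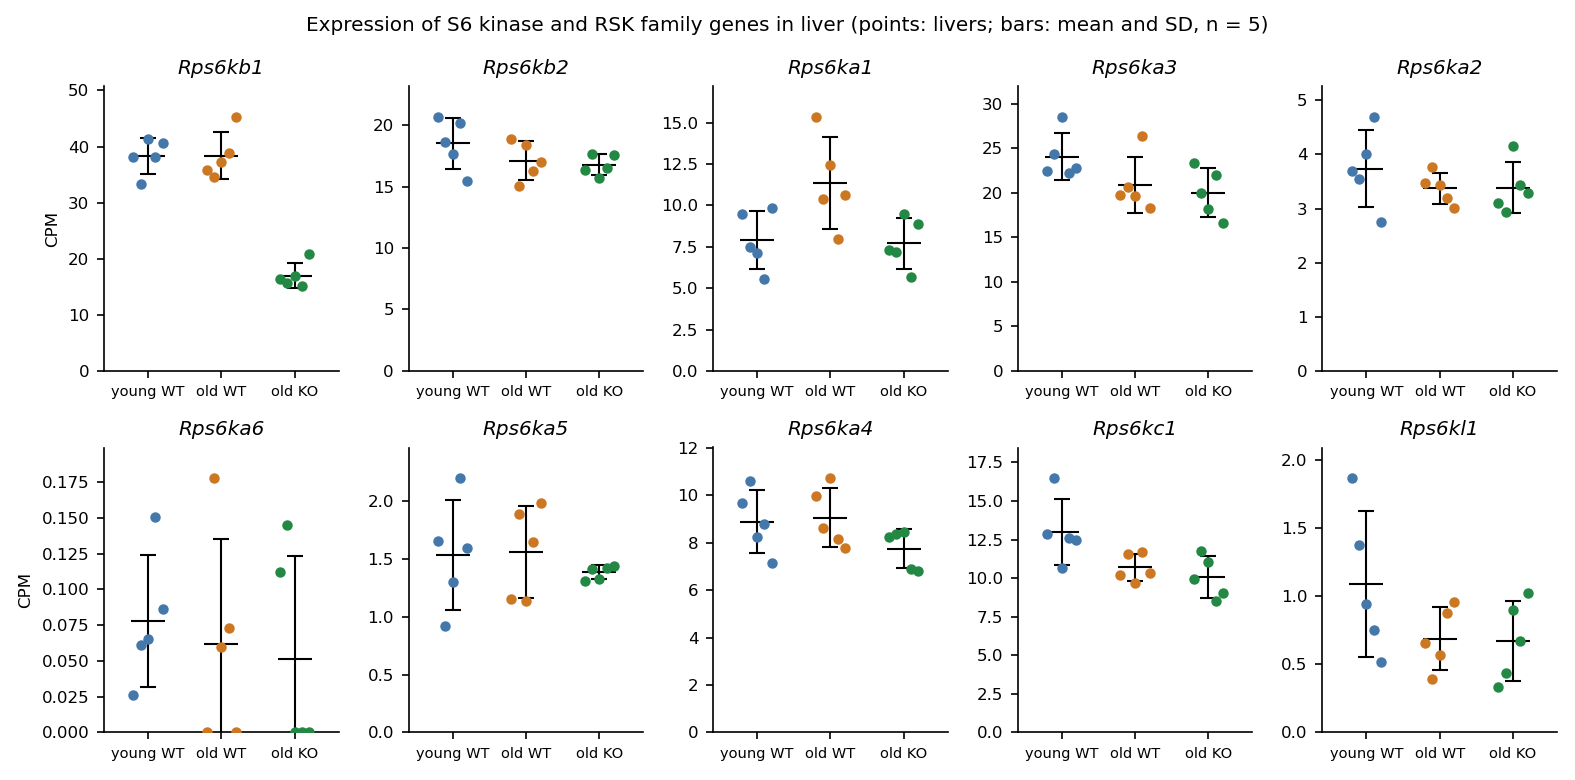
Level of each of the 10 family members in CPM (vertical axes, each from 0) in the young WT, old WT and old KO livers. Each point is 1 liver, and the bars give the mean and SD (n = 5). Rps6kb1 is the gene whose old KO livers, at 15.2 to 20.8 CPM, all lie below the old WT livers.

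Levels of different genes were compared per kilobase of exon. Per length, Rps6kb2 was the most abundant member in every group, at 7.55 ± 0.852 CPM per kb in young WT, 6.98 ± 0.636 in old WT and 6.83 ± 0.347 in old KO (SD, n = 5). Rps6kb1 came second in both WT groups, at 4.42 ± 0.363 and 4.43 ± 0.486 CPM per kb, and its livers did not overlap those of Rps6kb2. In old KO it stood at 1.96 ± 0.258 CPM per kb, where it overlapped Rps6ka3 above it and Rps6ka1 below it. The annotated exons of Rps6kb1 add up to 8658 bases and its longest transcript to 5531, and with the longest transcript as the length Rps6kb1 and Rps6kb2 overlapped in WT livers and Rps6kb1 was second in old KO, at 3.07 ± 0.403 CPM per kb (SD, n = 5), so the gap and its place in old KO depend on the length chosen.

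The share of S6K2 in the sum of both S6 kinase transcripts followed from these levels. S6K2 made up 62.9% ± 3.98 of the sum in young WT, 61.1% ± 3.19 in old WT and 77.7% ± 2.01 in old KO (SD, n = 5), and old KO livers, at 74.9% to 79.8%, did not overlap old WT livers, at 57.0% to 65.0%. The summed level of both genes was 11.4 ± 0.813 CPM per kb in old WT and 8.80 ± 0.506 in old KO. Old KO livers had 2.47 CPM per kb less Rps6kb1 than old WT livers, and the largest rise of Rps6kb2 inside its 95% interval was 0.800 CPM per kb, which is 32.4% of that difference, or 24.3% with the longest transcript as the length. The larger share of S6K2 in old KO thus went with less Rps6kb1 and not with a measured rise of Rps6kb2. The share, the sum and the difference count the remaining Rps6kb1 reads of old KO livers over the same length as in WT livers. Whether those reads came from a transcript that encodes S6K1 was not tested. Protein, which the paper blotted for both S6 kinases in old WT and KO livers, was not measured here.

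**Figure D2:**
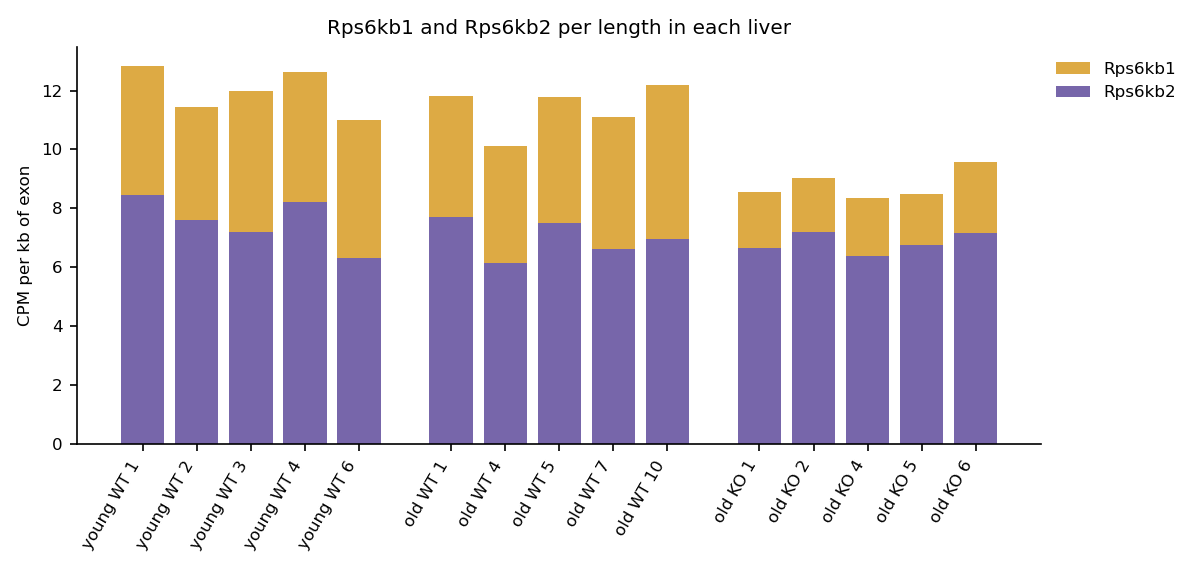
Rps6kb1 (upper part of each bar) and Rps6kb2 (lower part) in CPM per kb of exon, stacked for each of the 15 livers. The Rps6kb2 part is of similar height in all groups, and the Rps6kb1 part is shorter in the 5 old KO livers.

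Among the 9 tested members, 1 was called between old KO and old WT, Rps6kb1, beside 0.533% of all tested genes. None of the other 8 was called higher by edgeR, DESeq2 or limma voom, beside 0.112% of all tested genes, and 2 members had an unadjusted p below 0.05, Rps6kb1 and Rps6ka1, both lower. Rps6kb1 was also the 1 member whose old KO and old WT livers did not overlap, beside 3.20% of all tested genes. Of the other 8 tested members, 7 had a fitted value below 0, with a median of -0.07 on the log2 scale, where 49.8% of all tested genes were below 0 and their median was 0.0008.

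Of the RSKs, RSK1, a kinase activated by ERK, had a fitted value above 0 with age and below 0 with genotype whose 95% intervals both left out 0, and neither was called. Rps6ka1 (ENSMUSG00000003644, chr4:133403205-133443712) had 9.50, 7.51, 7.11, 5.57 and 9.87 CPM in the young WT livers. It had 15.4, 10.4, 12.5, 7.95 and 10.6 CPM in the old WT livers and 7.30, 7.19, 9.51, 5.66 and 8.86 CPM in the old KO livers. Of the old WT livers, 4 lay above every young WT liver and the fifth, old WT 7, lay among them, as it did among the old KO livers. The log2 difference was 0.52 for old WT against young WT (SE 0.188, interval 0.13 to 0.92, edgeR adjusted p = 0.0612) and -0.56 for old KO against old WT (SE 0.189, interval -0.96 to -0.16, adjusted p = 0.223). Both values rest on the same 5 old WT livers. The age difference passed the threshold with DESeq2 (adjusted p = 0.0379) and with limma voom (adjusted p = 0.0494), and also without old WT 7 (0.0231) or young WT 6 (0.0328). The genotype difference passed it in no fit, with an adjusted p of 0.136 to 0.474 when 1 liver was left out.

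Markers of macrophages and Kupffer cells had fitted values in the same directions as Rps6ka1. The young WT livers held a marker sum of 250 to 521 CPM over the 14 genes, the old WT livers 331 to 742 and the old KO livers 190 to 294, and none of the 14 was at 0. All 14 had a fitted value below 0 in old KO against old WT, and 8 of them were called lower, beside 0.533% of all tested genes. With age 12 of 14 had a value above 0 and 1 was called, Lyz2, a lysozyme of macrophages, a share below the 18.8% of all tested genes. Within each group the liver with the highest marker sum was not the one with the most Rps6ka1. Young WT 3 (521 CPM) had 7.11 CPM of Rps6ka1, old WT 4 (742 CPM) had 10.4 and old KO 1 (294 CPM) had 7.30. The livers with the most Rps6ka1 were young WT 6 (marker sum 512 CPM), old WT 1 (581 CPM) and old KO 4 (211 CPM). In the same order of groups, T cell markers summed to 3.14 to 6.94, 4.23 to 13.6 and 2.74 to 7.86 CPM, and B cell markers to 3.30 to 6.81, 8.32 to 41.3 and 13.8 to 71.1 CPM. The B cell sums were carried by Igj, the joining chain of antibodies made by plasma cells, with means of 0.731, 12.4 and 26.6 CPM, while 5 of the 6 B cell markers had a fitted value below 0 with genotype, and none was called by edgeR. The part of these cells in the Rps6ka1 values was not tested, and in whole liver fewer cells of a type and less RNA per cell cannot be told apart.

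**Figure D3:**
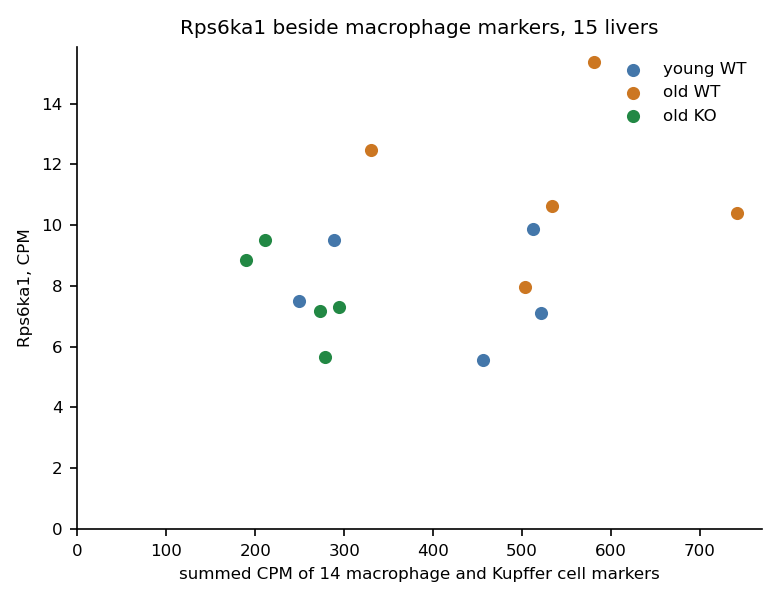
Rps6ka1 in CPM (vertical axis) beside the summed CPM of the 14 macrophage and Kupffer cell markers (horizontal axis), 1 point for each of the 15 livers, both axes from 0. The old KO livers lie between 190 and 294 CPM of marker sum, while the WT livers spread from 250 to 742 CPM.

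RSK2, the product of the X-linked Rps6ka3 (ENSMUSG00000031309, chrX:155648239-155806176), was the most abundant RSK by CPM per kb in young WT, at 2.89 ± 0.319 (SD, n = 5), and in old KO, at 2.41. In old WT it came below Rps6ka1, at 2.52 against 2.67 CPM per kb, with overlapping livers. Livers also overlapped in old KO, at 1.99 to 2.81 CPM per kb of Rps6ka3 against 1.33 to 2.23 of Rps6ka1. The young WT livers held 22.2 to 28.6 CPM of Rps6ka3, the old WT livers 18.3 to 26.4 and the old KO livers 16.6 to 23.4. Of the old WT livers, 4 lay below every young WT liver, and old WT 7, at 26.4 CPM, was the exception. The log2 difference was -0.20 with age (SE 0.114, adjusted p = 0.228) and -0.06 with genotype (SE 0.115, adjusted p = 0.897), with an upper bound of 13.4% for a rise in old KO.

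RSK3 and RSK4 were the lesser RSKs in liver. Rps6ka2 (RSK3, chr17:7374464-7507662) ran from 2.76 to 4.70 CPM among young WT livers, from 3.01 to 3.77 among old WT livers and from 2.94 to 4.15 among old KO livers, with log2 differences of -0.15 with age (SE 0.143, adjusted p = 0.485) and 0.0036 with genotype (SE 0.145, adjusted p = 0.998). Its interval in old KO reached 24.0% upward. Rps6ka6 (RSK4, chrX:108501801-108651568) was close to the limit of detection, with 12 reads in all young WT livers together, 9 in old WT and 7 in old KO, and at most 5 in any liver. Exact permutation tests on log2(CPM + 0.1) gave two-sided p = 0.508 with age and p = 0.841 with genotype (n = 5 per group), where 0.00794 is the smallest p that 5 against 5 can give. A difference in RSK4 was not detectable at this depth.

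The MSKs, which phosphorylate CREB and histone H3 in the nucleus, differed from each other in level. Rps6ka4 (MSK2, ENSMUSG00000024952, chr19:6903575-6915115) had 2.88 ± 0.399 CPM per kb in old WT against 0.354 ± 0.0907 for Rps6ka5 (MSK1, ENSMUSG00000021180, chr12:101787988-101963238), SD and n = 5, with no overlap of livers. In CPM, Rps6ka4 ran from 7.16 to 10.6 among young WT livers, from 7.79 to 10.7 among old WT livers and from 6.82 to 8.44 among old KO livers. Its log2 difference was 0.03 with age (SE 0.123, adjusted p = 0.908) and -0.23 with genotype (SE 0.124, adjusted p = 0.509), with a bound of 2.52% for a rise in old KO. For Rps6ka5 the young WT livers held 0.916 to 2.20 CPM, the old WT livers 1.13 to 1.98 and the old KO livers 1.31 to 1.44. All 5 old KO livers fell inside the old WT range, and the log2 differences were 0.02 with age (SE 0.222, adjusted p = 0.966) and -0.17 with genotype (SE 0.227, adjusted p = 0.839).

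The RSK-like genes had the lowest fitted values with age. Rps6kc1 (ENSMUSG00000089872, chr1:192524081-192735649), whose product joins a lipid-binding PX domain to kinase-like domains, had 12.8, 16.5, 10.7, 12.6 and 12.5 CPM in the young WT livers. It had 10.2, 11.6, 9.69, 11.7 and 10.3 CPM in the old WT livers and 9.96, 11.7, 11.1, 8.51 and 9.05 CPM in the old KO livers. Young WT 3, at 10.7 CPM, was the young liver that lay among the old ones. The log2 difference was -0.28 with age (SE 0.118, interval -0.53 to -0.03, adjusted p = 0.103) and -0.09 with genotype (SE 0.119, adjusted p = 0.843). Rps6kl1 (chr12:86476546-86492214), a little-studied kinase-like gene, ran from 0.517 to 1.87 CPM among young WT livers, from 0.391 to 0.956 among old WT livers and from 0.337 to 1.02 among old KO livers. With 9 to 71 reads per liver its intervals were the widest of the family, and its log2 differences were -0.69 with age (SE 0.359, adjusted p = 0.194) and -0.05 with genotype (SE 0.383, adjusted p = 0.985), with a rise of up to 69.5% in old KO still inside the interval.

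**Figure D4:**
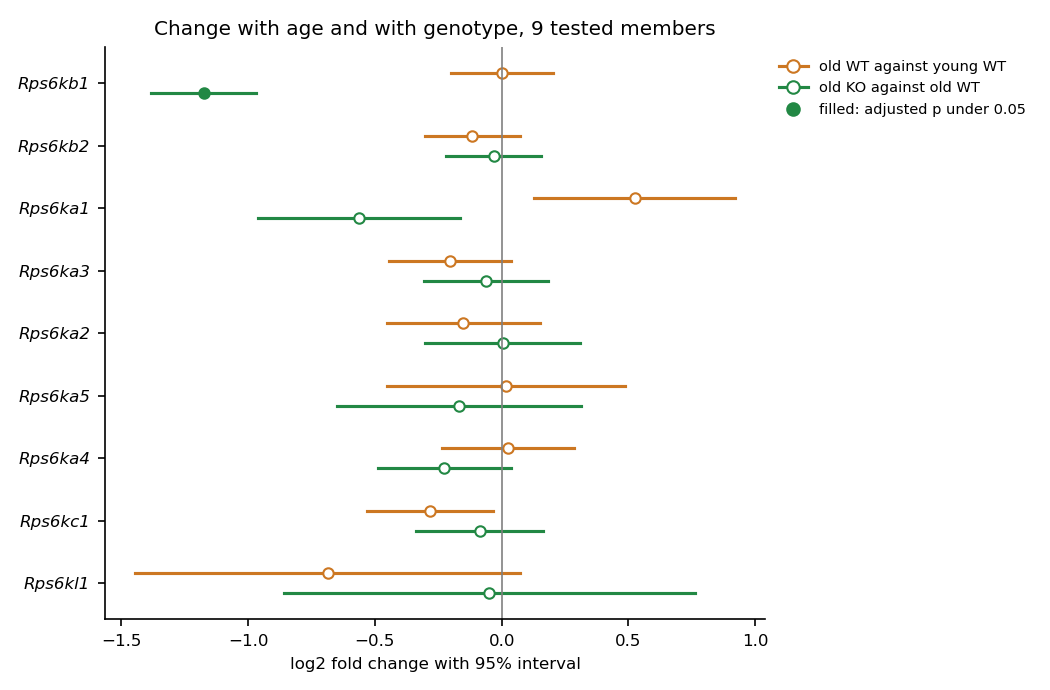
Fitted log2 fold change (horizontal axis) of the 9 tested members for old WT against young WT and for old KO against old WT, with 95% intervals as lines and filled points for an adjusted p below 0.05. Rps6kb1 with genotype, at -1.17, is the filled point.

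With age, edgeR called 0 of the 9 tested members, beside 18.8% of all tested genes. An unadjusted p below 0.05 was found for 2 of them, Rps6ka1 upward and Rps6kc1 downward, and DESeq2 and limma voom each called 1, Rps6ka1. The young and old WT livers overlapped for each of the 9, beside 11.4% of all tested genes that had no overlap. Between old KO and young WT, where age and genotype both differ, 2 members were called, beside 23.3% of all tested genes. They were Rps6kb1, at -1.17 (SE 0.0979, adjusted p = 3.29e-06), and Rps6kc1, at -0.37 (SE 0.118, adjusted p = 0.0335). The call of Rps6kc1 was lost without young WT 1 (adjusted p = 0.0569), young WT 2 (0.0948), old KO 1 (0.0606), old KO 5 (0.0857) or old KO 6 (0.0686), and with the 10 livers of that comparison alone (0.0619).

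The pathway around the family was followed in 5 gene lists with 111 tested genes. With age 8 of them rose and 12 fell by edgeR, beside the 18.8% of all tested genes called in either direction, and with genotype 1 fell and 0 rose, beside 0.533%.

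The 18 regulators upstream of the S6 kinases held 1 gene that rose with age and 3 that fell, with a median log2 difference of -0.07 beside 0.0080 over all tested genes. Ppp2ca, the catalytic subunit of protein phosphatase 2A, fell from 160 ± 9.40 to 131 ± 11.5 CPM (SD, n = 5), a log2 difference of -0.30 (SE 0.0755, adjusted p = 0.0136) with no overlap of livers. Its scaffold subunit Ppp2r1a fell by 0.38 (adjusted p = 0.0397). The call of Ppp2r1a was lost without young WT 1, 2, 3 or 4, any of the 5 old WT livers or old KO 4 (adjusted p 0.0507 to 0.113). It was also lost with limma voom (0.0624), without the filter on low counts (0.0552) and with the 10 livers of that comparison alone (0.0699).

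The kinases directly above S6K1 were not called by edgeR in either comparison. Mtor, the kinase of mTORC1, had 63.6 ± 6.62 CPM in young WT, 68.4 ± 9.01 in old WT and 51.1 ± 6.42 in old KO (SD, n = 5), and the old KO livers, at 40.3 to 57.1, overlapped the old WT livers, at 54.6 to 78.9. Its log2 difference was 0.10 with age (adjusted p = 0.528) and -0.42 with genotype (SE 0.109, edgeR adjusted p = 0.102), and DESeq2 called the latter (adjusted p = 0.0267). Pdpk1, which encodes PDK1, differed by -0.18 with age (adjusted p = 0.116) and -0.08 with genotype (adjusted p = 0.772). None of the 18 upstream regulators was called with genotype by edgeR, 1 had an unadjusted p below 0.05 and DESeq2 called 1, Mtor in both cases.

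Of the 18 substrates and partners of the S6 kinases, 1 rose and 4 fell with age, with a median of -0.10, and neither edgeR nor DESeq2 called any with genotype, where 1, Ncbp1, had an unadjusted p below 0.05. Eprs, the glutamyl-prolyl-tRNA synthetase, fell from 172 ± 11.7 to 126 ± 10.9 CPM (SD, n = 5), by 0.45 on the log2 scale (adjusted p = 0.00160). Ncbp1, a subunit of the nuclear cap-binding complex, fell by 0.34 (adjusted p = 0.00408), and Eif3b, a subunit of the initiation factor eIF3 that binds S6K1, by 0.30 (adjusted p = 0.0153). Young and old WT livers did not overlap for any of these 3 genes. Rps6, the substrate that gave the family its name, had 65.0 ± 7.58, 75.0 ± 6.45 and 81.2 ± 5.82 CPM in young WT, old WT and old KO, with log2 differences of 0.21 (adjusted p = 0.110) and 0.11 (adjusted p = 0.668).

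Of the 15 kinases above the RSKs and MSKs, 1 rose and 1 fell with age, and none was called with genotype by edgeR or DESeq2, with 2 at an unadjusted p below 0.05. Mapk3, which encodes ERK1, rose from 21.3 ± 1.43 to 32.3 ± 5.19 CPM (SD, n = 5), by 0.60 on the log2 scale (SE 0.102, adjusted p = 0.00149), and Braf, a kinase that activates the MEK and ERK cascade, fell by 0.50 (SE 0.102, adjusted p = 0.00430). Young and old WT livers did not overlap for either gene. Mapk3 differed by -0.07 with genotype (adjusted p = 0.845).

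Of the 17 substrates of RSKs and MSKs, 3 rose with age and 0 fell, and 1 fell with genotype. Ybx1, a Y-box RNA- and DNA-binding protein, rose by 0.30 with age (adjusted p = 0.00506), from 124 ± 4.05 to 152 ± 8.86 CPM (SD, n = 5) with no overlap. Dapk1, a death-associated kinase, rose by 0.46 (adjusted p = 0.0257), a call lost without young WT 1 (0.0712), young WT 4 (0.0654) or old WT 1 (0.0689). Fos, an immediate early transcription factor, ran from 1.60 to 2.80 CPM among young WT livers, from 2.39 to 6.23 among old WT livers and from 0.814 to 1.95 among old KO livers. It rose by 0.83 with age (SE 0.272, adjusted p = 0.0429) and fell by 1.47 with genotype (SE 0.286, adjusted p = 0.0337), where old KO and old WT livers did not overlap. The age call was lost without young WT 1, 2, 4 or 6, old WT 1, 4 or 7, or old KO 2 (adjusted p 0.0512 to 0.111). The genotype call was lost without old WT 1, 4 or 7, or old KO 2, 4, 5 or 6 (0.0590 to 0.101) and by limma voom (0.0556). With the 10 livers of the comparison alone the age call (0.0600) and the genotype call (0.0538) were lost. Without the filter on low counts the age call was lost (0.0523).

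Of the 43 tested kinases of the AGC class outside the family, 2 rose and 4 fell with age, and neither edgeR nor DESeq2 called any with genotype, with 6 at an unadjusted p below 0.05. Prkaca, the catalytic subunit of protein kinase A, rose by 0.33 (adjusted p = 0.00645), and Lats1, a kinase of the Hippo pathway, fell by 0.25 (adjusted p = 0.00750). Stk38, a kinase related to LATS1, rose by 0.25 (adjusted p = 0.0182), a call lost without young WT 4 (0.0616) and with the 10 livers of that comparison alone (0.0512). The median log2 difference of these kinases was 0.0093 with age and -0.06 with genotype.

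**Figure D5:**
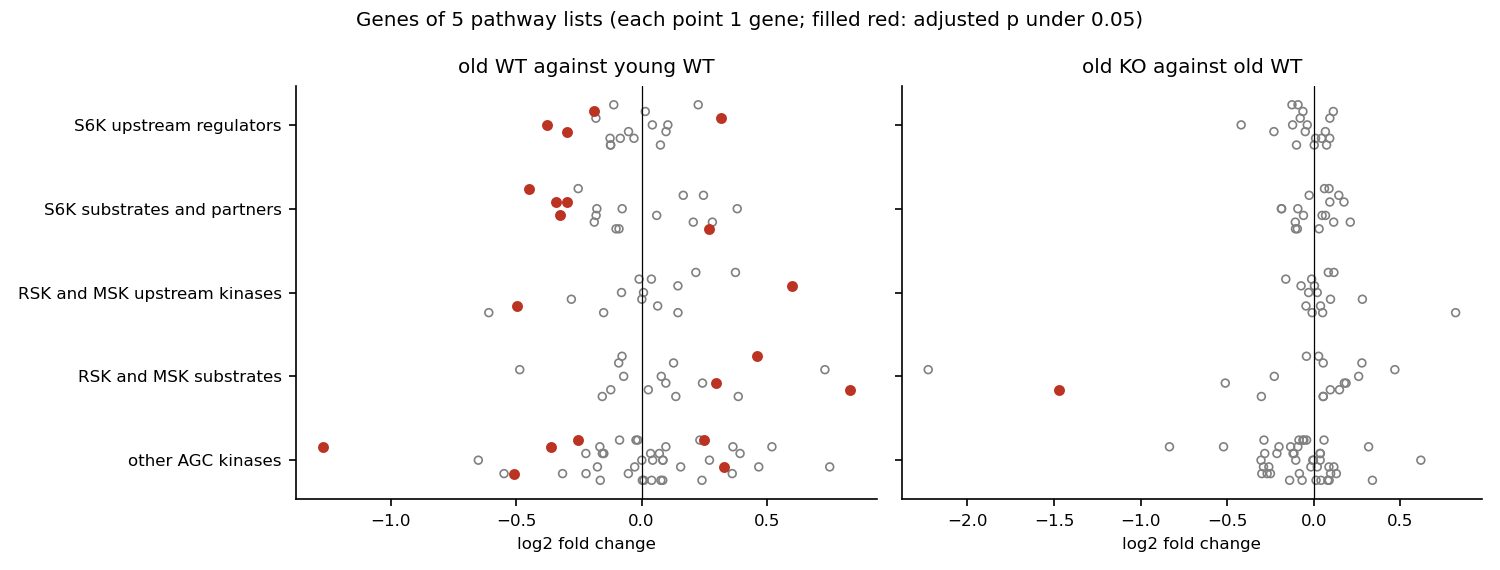
Fitted log2 fold change (horizontal axes) of the tested genes of the 5 pathway lists, with age on the left and with genotype on the right, each point 1 gene. Filled points are called at an adjusted p below 0.05, which are 20 genes with age and 1, Fos, with genotype.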

How the data were processed

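RNA from 15 mouse livers was read as single-end 50-base reads from stranded poly(A) libraries. Per the labels and the study's methods, the authors used CASAVA, mapped reads to mm9 with TopHat2 2.0.11, counted reads per gene with HTSeq and tested with DESeq2 1.18.1; the table they deposited holds unnormalized read counts for each gene. The annotation and strand setting of the counting are not given in the sources used here, so counts of overlapping genes are uncertain. Total counts ran from 21801754 to 38065359 per library. Groups and replicate numbers came from the sample titles.

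Genes were matched by Ensembl identifier to GENCODE M1 on NCBIM37, which gave positions, exon lengths and the sequences shown; 786 identifiers had no symbol. Genes were kept by filterByExpr (14258 of 37991), scaled by TMM and fitted with edgeR 4.0.16 (R 4.3.3) quasi-likelihood over all 15 libraries with group as the term, with Benjamini-Hochberg adjustment over all tested genes. The common biological coefficient of variation was 0.189. Rps6ka6 failed the filter and was tested by exact permutation on log2(CPM + 0.1). Alternatives were DESeq2 1.42.0, limma 3.58.1 voom, other scalings, filters, lengths and pseudocounts, a replicate block, the 10 libraries of each contrast alone, and leaving out each library. P-values of the fits judge a group difference against the spread between livers within groups, as each fit estimated it.

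All 10 members are named. From each pathway list the 3 genes with the smallest p among those called with age or genotype are named, along with Mtor, Pdpk1, Rps6 and Mapk3, and the 5 genes whose log2 CPM correlated most with Rps6kb1 or Rps6kb2. Members and lists were chosen with earlier results of these data known. Of 180 list entries, 177 were matched by symbol. Some genes that these rules name are not reported here.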

Additional observations from a re-analysis of the deposited data

How the results depend on the processing

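Rps6kb1 was called with genotype, and no other tested member was, in each alternative fit and without each of the 15 libraries. The number of members called with age was 0, and 1 (Rps6ka1) with DESeq2 and with limma voom, and 0 to 1 when 1 library was left out. Between old KO and young WT 2 members were called, 1 with the 10 libraries of that contrast, and 1 to 2 when 1 library was left out. Over all genes, 2685 were called with age and 899 with a replicate block, with a range of 1748 to 3284 when 1 library was left out (over 1.5 times from the full count without young WT 1). With genotype 76 were called, against 305 with DESeq2, 23 with limma voom, 6 with the replicate block and 9 to 108 when 1 library was left out (over 1.5 times from the full count without young WT 4, old WT 1, 4, 7 or 10, or old KO 2, 4, 5 or 6). With the replicate block, young WT 3, old WT 7 and old WT 10 each had a number that no other liver shared. Those livers therefore added nothing to the group differences of that fit, which rested on fewer livers than the others. The cause of the other changes in count was not tested. With the replicate block the age calls of Ppp2ca, Ppp2r1a, Eif3b, Ybx1, Fos, Prkaca, Lats1 and Stk38 and the genotype call of Fos were lost (edgeR adjusted p 0.05 to 0.221). Braf, Dapk1, Eprs, Mapk3 and Ncbp1 kept their age calls there. Deviations of same-numbered livers of different groups correlated at -0.153 to 0.077, inside the -0.267 to 0.355 of differently numbered livers. Pairing by replicate number was thus not seen, though so few pairs cannot exclude it.

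Signs changed for uncalled values near 0. Rps6kb1 with age was -0.0023 with RLE size factors, -0.0022 with DESeq2, -0.018 with the replicate block and -0.0051 with the 10 libraries alone, and -0.064 to 0.045 when 1 library was left out. Rps6ka2 with genotype was -0.016 with upper quartile scaling, -0.0032 with no filter, -0.0058 with at least 10 counts in every library and -0.0077 with limma voom, and -0.080 to 0.046 when 1 library was left out. With the replicate block Rps6ka5 was -0.26 with age and 0.13 with genotype, Rps6ka3 was 0.029 and Rps6kl1 0.39 with genotype. When 1 library was left out, Rps6ka5 ran from -0.12 to 0.18 and Rps6ka4 from -0.044 to 0.095 with age, and with genotype Rps6kb2 from -0.079 to 0.0042, Rps6ka3 from -0.12 to 0.029, Mapk3 from -0.15 to 0.0068 and Rps6kl1 from -0.24 to 0.12. The S6K2 share by longest transcript was 56.0%, 54.1% and 72.3% in young WT, old WT and old KO. Depth limits Rps6ka6, Rps6kl1 and Rps6ka5 most.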

Other observations

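Over the 10 WT livers, the genes whose log2 CPM was most like that of Rps6kb1 were Thap1 (Pearson r = 0.923), Fam174a (0.886), Fam162a (0.882), Slain2 (0.881) and Rab5a (0.874). The 5 most like Rps6kb2 were Dctn3 (0.949), Nme4 (0.948), Zfp598 (0.936), Rexo1 (0.936) and Tmem208 (0.932). These values are a description, the highest among all tested genes, and the livers share their group and library effects. The 2 lists held no gene in common. In old KO against old WT Rps6kb1 fell by 1.17 on the log2 scale. None of its 5 most alike genes was called there by edgeR, with differences of -0.21 to 0.18 and adjusted p of 0.423 to 0.988. Of all tested genes 0.533% were called, a share at which 0 calls among 5 genes say little about them.

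The other marker lists were counted in the same fit. With age, 2 of 9 tested hepatocyte markers, 2 of 6 endothelial markers and 1 of 6 stellate cell and fibroblast markers were called lower, and 2 of 8 T cell and 2 of 6 B cell markers were called higher, in lists of a few genes each and beside 18.8% of all tested genes called in either direction. None of these lists, nor the neutrophil (2 tested), cholangiocyte (4 tested) or adipocyte and mesothelial markers (2 tested), held a gene called with genotype by edgeR.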
